A study of Homo sapiens with 9 samples.

Results

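The kinetochore is the protein assembly on each centromere that holds a chromosome to the spindle, and 37 genes for its parts and for the spindle checkpoint were followed here in U2OS cells, a human osteosarcoma line. The members were chosen by symbol and found by their Ensembl gene IDs. All 37 were among the 70116 gene IDs of the count table, and 34 of them were among the 19408 genes with enough counts to be tested. Messenger RNA was sequenced in 9 libraries, in 3 groups of 3 numbered sets. PERK knockout cells were U2OS cells in which PERK, the endoplasmic reticulum stress kinase encoded by EIF2AK3, had been depleted with CRISPR/Cas9, and they had been on palbociclib for 4 days. Wild-type (WT) U2OS cells had likewise been on palbociclib for 4 days. WT U2OS cells on vehicle formed the remaining group. Palbociclib is an inhibitor of CDK4 and CDK6, which phosphorylate RB and so release E2F at cell-cycle entry. No knockout library on vehicle was analysed here, so the response to the drug cannot be compared between genotypes. Whether the knockout line is a clone or a pool is not stated in the labels, nor whether the sets were separate cultures. What the p-values measure is therefore library-to-library spread, which may be technical.

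Centromeric chromatin carries the histone variant CENP-A, which a chaperone and a licensing complex load after mitosis. On it sits the constitutive centromere-associated network (CCAN), to which the outer kinetochore binds. The outer kinetochore consists of KNL1, the MIS12 complex and the NDC80 complex, which grips the microtubule with the help of the SKA complex. The RZZ complex and CENP-E build a corona on unattached kinetochores, and the checkpoint kinases and MAD2 hold back anaphase until every chromosome is attached. Most of these mRNAs are made in G2 and mitosis, so in a bulk sample fewer cycling cells and less mRNA per cell cannot be told apart.

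Libraries held 33674039 to 42577874 counts. EIF2AK3, the targeted gene, measured 19.7, 18.7 and 17.8 CPM (counts scaled to a common library size) in PERK knockout libraries on palbociclib, 35.7, 36.8 and 31.8 CPM in WT libraries on palbociclib, and 31.7, 34.8 and 32.8 CPM in WT libraries on vehicle. All 3 knockout libraries were below the 6 WT libraries. The log2 fold change was -0.89 ± 0.068 (SE) for knockout over WT cells on palbociclib (edgeR adjusted p = 5.98e-09). The labels do not give the position of the edit. Of 8 markers of the osteosarcoma line 7 passed the low-count filter, all but TWIST1, and their summed level was 7796 to 9564 CPM in knockout libraries on palbociclib, 7507 to 8584 CPM in WT libraries on palbociclib and 5129 to 5497 CPM on vehicle. Within that list SPARC was higher in knockout than in WT cells on palbociclib (log2 fold change 0.17), while RUNX2 (-0.40) and ALPL (-0.66) were lower, and 4 of the 7 were not called. A list of 6 epithelial markers summed to 567 to 590 CPM in knockout libraries on palbociclib, 865 to 917 CPM in WT libraries on palbociclib and 655 to 689 CPM on vehicle. Among 6 haematopoietic markers, summing to at most 0.809 CPM, CD3E and HBB were at 0 in every library. A list of 6 endothelial markers summed to 6.43 to 8.00 CPM over all 9 libraries. The part of these lists in the results was not tested.

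In the promoters of G2 and mitosis genes, background knowledge names a short cell-cycle homology region (CHR) that binds the DREAM and MuvB complexes, often downstream of a CCAAT box, while E2F sites are typical of G1 and S phase genes. Windows of 250 bases before to 50 bases after the annotated start were held by RefSeq (GRCh38.p14) for 31 of the 37 members. Only the first listed window of each gene was used, so other starts of a gene were not searched. BUB3, CENPH, CENPM, KNL1, MIS18A and TTK were not matched. The CHR letters TTTGAA or TTCGAA, on either strand, were found in 18 of the 31 member windows (58.1%), against 16.6% of all 27305 promoter windows of that length. CCAAT, on either strand, was found in 19 member windows (61.3%), against 35.7% of all windows. The E2F letters TTTGGCGC, TTTCCCGC or TTTCGCGC, on either strand, were found in 4 (12.9%), against 2.79% of all windows. No match of one motif overlapped a match of another in the member windows. A match describes letters and is not a binding site.

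Upstream sequences of 200 bases are shown for 6 members, from 200 bases before the start to the base before it, 5′ to 3′ on the gene's strand. Capitals mark the CHR, CCAAT or E2F letters. The first 4, all members with CHR letters, are those of the checkpoint kinase-like protein BUB1B at chr15:40160869-40161068 (plus strand), the centromeric histone CENPA at chr2:26785856-26786055 (plus strand), its chaperone HJURP at chr2:233854536-233854735 (minus strand) and the KNL1 partner ZWINT at chr10:56361260-56361459 (minus strand). The last pair, CENPT at chr16:67847694-67847893 (minus strand) and NSL1 at chr1:212791778-212791977 (minus strand), hold none of the letters in the whole 300-base window. They are shown because these are 2 of the members whose levels differed least between WT cells on palbociclib and on vehicle. The other members with none of the letters fell further in that comparison and are not shown. Their log2 fold changes were -0.47 for CENPE, -0.48 for CENPI and -0.63 for DSN1.
BUB1B: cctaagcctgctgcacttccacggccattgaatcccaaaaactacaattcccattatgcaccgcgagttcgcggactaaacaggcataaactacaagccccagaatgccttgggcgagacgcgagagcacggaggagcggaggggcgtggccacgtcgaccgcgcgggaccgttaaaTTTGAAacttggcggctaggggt
CENPA: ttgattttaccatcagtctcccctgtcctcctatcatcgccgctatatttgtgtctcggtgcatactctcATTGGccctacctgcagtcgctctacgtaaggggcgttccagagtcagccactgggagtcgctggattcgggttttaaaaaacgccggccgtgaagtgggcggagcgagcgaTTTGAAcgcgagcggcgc
HJURP: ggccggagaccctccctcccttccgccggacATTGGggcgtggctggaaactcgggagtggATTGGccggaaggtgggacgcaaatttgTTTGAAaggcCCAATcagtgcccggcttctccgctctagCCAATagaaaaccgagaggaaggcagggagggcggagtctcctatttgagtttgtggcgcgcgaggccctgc
ZWINT: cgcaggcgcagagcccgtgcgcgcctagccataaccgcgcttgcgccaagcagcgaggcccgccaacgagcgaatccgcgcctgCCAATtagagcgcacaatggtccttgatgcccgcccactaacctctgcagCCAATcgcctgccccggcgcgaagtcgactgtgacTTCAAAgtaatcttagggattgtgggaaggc
CENPT: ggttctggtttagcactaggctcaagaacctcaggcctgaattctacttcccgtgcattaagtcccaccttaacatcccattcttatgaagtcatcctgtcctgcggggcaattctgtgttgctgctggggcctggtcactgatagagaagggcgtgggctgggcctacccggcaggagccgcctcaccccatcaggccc
NSL1: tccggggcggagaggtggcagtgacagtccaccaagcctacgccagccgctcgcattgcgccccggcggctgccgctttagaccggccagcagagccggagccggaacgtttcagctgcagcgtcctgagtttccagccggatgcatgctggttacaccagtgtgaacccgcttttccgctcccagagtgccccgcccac
In BUB1B and CENPA the CHR letters lie close to the start, and in HJURP they stand amid 4 CCAAT matches.

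**Figure D1:**
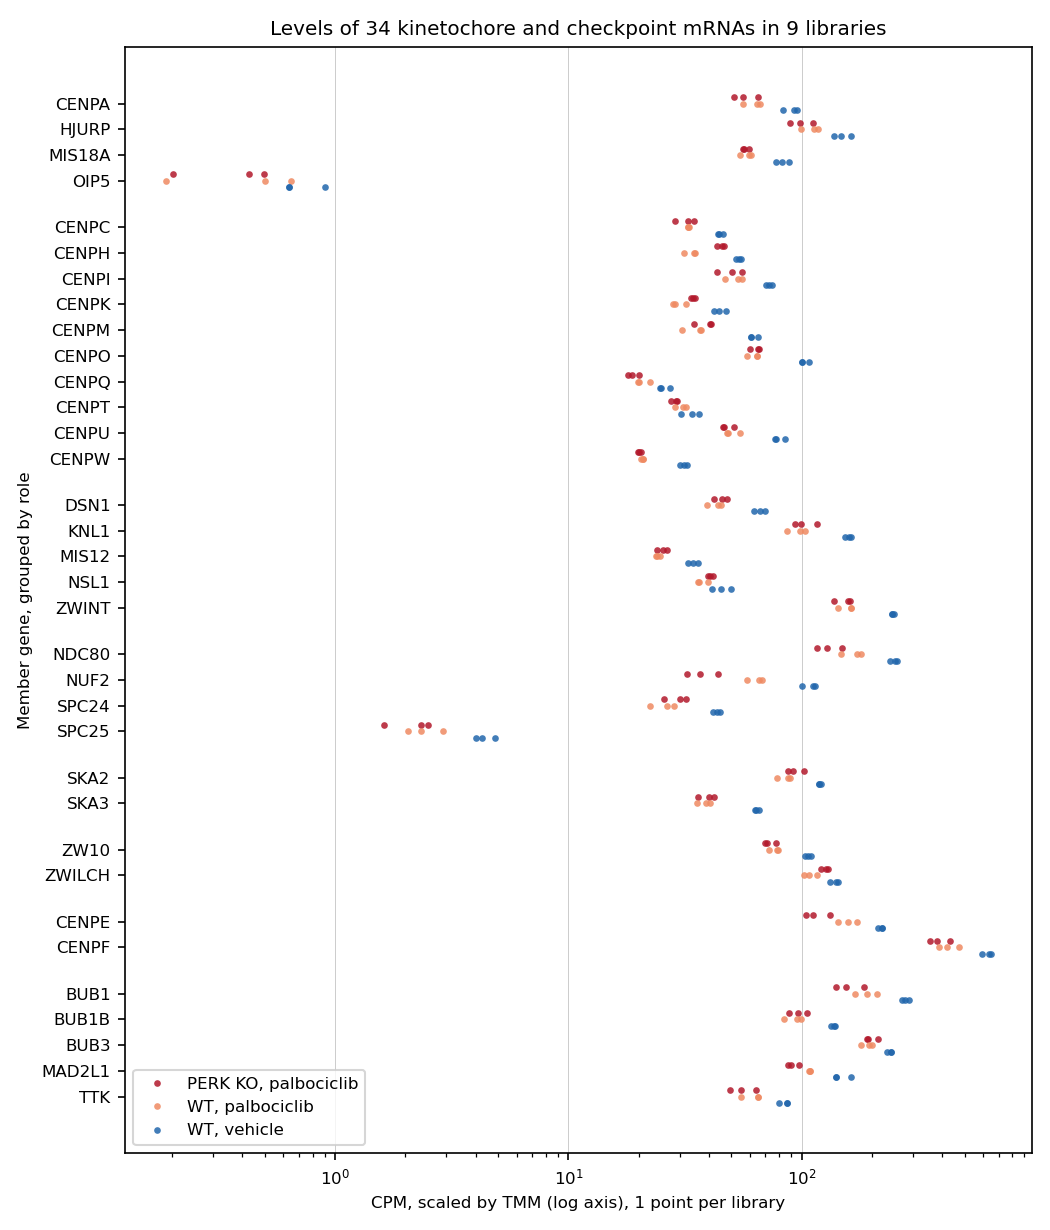
Level of each of the 34 tested members in CPM on a log axis, with 1 point per library and the members grouped by role; PERK knockout on palbociclib, WT on palbociclib and WT on vehicle are coloured separately. Vehicle points lie to the right for nearly every member, and NUF2 shows 3 separate groups of points.

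The first comparison asked what 4 days of palbociclib did to kinetochore and checkpoint mRNAs in WT cells. Nearly the whole set fell together: 32 of the 34 tested members were lower on palbociclib than on vehicle, and none was higher. The median log2 fold change was -0.55 and the range -0.85 to -0.13, beside a median of -0.02 for all genes tested. In every one of the 32, all 3 palbociclib libraries were below all 3 vehicle libraries. Of all 19408 genes, 22.3% were called lower and 21.3% were called higher in this comparison, 43.7% in either direction (edgeR, Benjamini-Hochberg adjusted p under 0.05), and 26.9% had all palbociclib libraries below all vehicle libraries, while 24.7% had all above. The 34 mRNAs together made up 0.277 ± 0.0190% of all counts in WT cells on palbociclib and 0.401 ± 0.00449% on vehicle (SD, n = 3 each). The remaining pair, OIP5 and CENPT, were not called.

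The NDC80 complex, the microtubule-binding rod of the outer kinetochore, had the lowest median of the 8 roles, at -0.76 on the log2 scale, and all 4 of its subunits fell. SPC25, which anchors the rod to the inner kinetochore, measured 2.33, 2.91 and 2.05 CPM in WT cells on palbociclib, against 4.86, 4.00 and 4.27 CPM on vehicle. Its log2 fold change of -0.85 ± 0.17 (edgeR adjusted p = 0.000412) was the lowest of all members, from 78 to 192 counts per WT library. NUF2, which pairs with NDC80 in the head of the rod, measured 65.8, 67.9 and 58.1 CPM on palbociclib, against 111, 101 and 114 CPM on vehicle (log2 fold change -0.77 ± 0.10, adjusted p = 0.000136). NDC80 itself stood at 179, 172 and 148 CPM on palbociclib, against 255, 240 and 252 CPM on vehicle, a log2 fold change of -0.58. SPC24, the partner of SPC25, had a log2 fold change of -0.75. In each of the 4 the palbociclib libraries lay below the vehicle libraries with a gap.

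Among the CCAN, which links CENP-A chromatin to the outer kinetochore, 9 of the 10 tested members fell, with a median of -0.59. CENPM, a CCAN subunit that resembles a small GTPase, fell furthest, to 36.7, 36.99 and 30.6 CPM on palbociclib, against 65.0, 60.8 and 60.4 CPM on vehicle (log2 fold change -0.84 ± 0.075, edgeR adjusted p = 1.17e-07). CENPH and CENPK, which belong to one subcomplex with CENPI, had log2 fold changes of -0.68 and -0.59. CENPU, with -0.67, and CENPQ, with -0.30, sit in another subcomplex and were further apart. CENPQ measured 20.2, 22.4 and 19.97 CPM on palbociclib, against 24.8, 24.7 and 27.2 CPM on vehicle (adjusted p = 0.00179). CENPC, the direct reader of CENP-A nucleosomes, had -0.45. CENPT, which recruits the NDC80 complex directly, was not called (log2 fold change -0.13 ± 0.068, 95% interval -0.27 to 0.01, adjusted p = 0.131). Its levels of 31.2, 28.7 and 31.8 CPM on palbociclib overlapped those of 36.3, 30.3 and 33.8 CPM on vehicle. CENPT shares exon bases on the opposite strand with TSNAXIP1 (596), THAP11 (380) and NUTF2 (110). NUTF2 averaged 7019 counts per library, against 1175 for CENPT, and the labels do not give the strand handling. Without the vehicle library of set 2 CENPT passed the test (adjusted p = 0.03). Its histone-fold partner CENPW, at -0.59, did fall.

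All 5 members of the KNL1 and MIS12 group fell, with a median of -0.63. KNL1, the scaffold for the checkpoint kinases, measured 103, 98.7 and 86.7 CPM on palbociclib, against 163, 160 and 154 CPM on vehicle (log2 fold change -0.72 ± 0.078, edgeR adjusted p = 4.53e-06). ZWINT, which binds KNL1, had -0.65, DSN1 -0.63 and MIS12 -0.50. NSL1, another MIS12 complex subunit, was the smallest change that passed, with -0.28 ± 0.066 (adjusted p = 0.00151). It measured 36.0, 39.7 and 36.3 CPM on palbociclib, against 41.1, 45.2 and 50.04 CPM on vehicle, groups only just apart. Both tested SKA genes fell. SKA3, the subunit that binds the NDC80 complex, measured 40.3, 38.8 and 35.6 CPM on palbociclib, against 64.0, 62.9 and 65.9 CPM on vehicle (log2 fold change -0.75 ± 0.061, adjusted p = 9.07e-09). SKA2 had -0.49.

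Of the 4 genes for CENP-A loading 3 fell, with a median of -0.53. CENPA itself had a log2 fold change of -0.54, its chaperone HJURP -0.44, and MIS18A, a subunit of the licensing complex, -0.51. OIP5, the other licensing subunit, rested on 7 to 33 counts per library and was not called (log2 fold change -0.70 ± 0.37, 95% interval -1.48 to 0.07, edgeR adjusted p = 0.136). It measured 0.648, 0.189 and 0.5 CPM on palbociclib, against 0.633, 0.631 and 0.908 CPM on vehicle, and the groups overlapped. OIP5 shares 470 exon bases, 38.0% of its own, with OIP5-AS1 on the opposite strand, which had 4270 to 6123 counts per library. The labels do not say whether reads were counted by strand.

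The corona and checkpoint genes fell as well. CENPF, a large corona protein of G2 and mitosis, measured 471, 421 and 389 CPM on palbociclib, against 633, 647 and 592 CPM on vehicle (log2 fold change -0.55 ± 0.077, edgeR adjusted p = 4.61e-05). CENPE, the kinetochore kinesin, had -0.47. In the RZZ complex, which brings dynein and the MAD proteins to the kinetochore, ZW10 measured 78.5, 79.6 and 72.2 CPM on palbociclib, against 106, 110 and 103 CPM on vehicle (log2 fold change -0.47 ± 0.054, adjusted p = 7.07e-07). ZWILCH, its partner, had -0.35. All 5 checkpoint genes fell, with a median of -0.46. BUB1B, the BUBR1 protein of the mitotic checkpoint complex, measured 99.1, 96.0 and 83.6 CPM on palbociclib, against 139, 133 and 138 CPM on vehicle (log2 fold change -0.56 ± 0.067, adjusted p = 3.49e-06). BUB1, the kinase that marks centromeric histone H2A, had -0.55, TTK, the kinase also called MPS1, -0.46, and MAD2L1, the MAD2 protein, -0.45. BUB3, the shared partner of BUB1 and BUBR1, fell least of the 5, by 0.31.

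**Figure D2:**
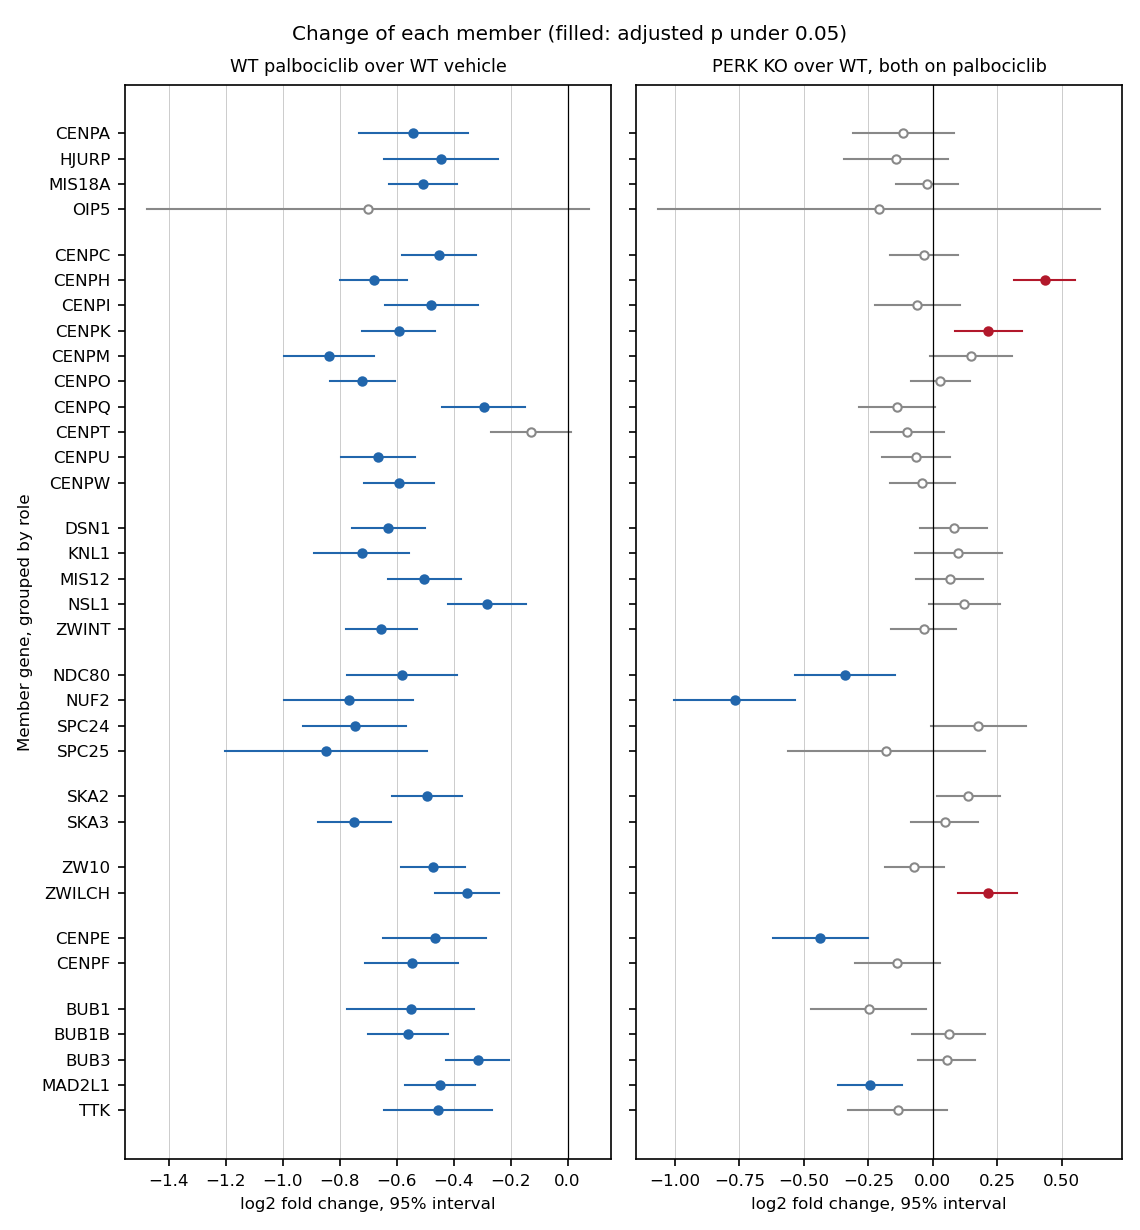
Log2 fold change of each tested member with its 95% interval, filled where the adjusted p was under 0.05, with the members grouped by role. The panels show WT cells on palbociclib over vehicle and knockout over WT cells on palbociclib. WT cells on palbociclib over vehicle show 32 filled points, all left of 0. Knockout over WT cells on palbociclib shows 7, with NUF2 at -0.77 and CENPH at 0.43.

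The second comparison asked how PERK knockout cells differed from WT cells when both were on palbociclib. The set as a whole lay close to its WT level: the median was -0.04 on the log2 scale, beside 0.01 for all genes. Of the 34 members, 3 were higher in knockout cells, namely CENPH, CENPK and ZWILCH, and 4 were lower, namely NUF2, CENPE, NDC80 and MAD2L1. These are 8.82% and 11.8% of the members, where 14.9% of all genes were called higher and 13% were called lower (edgeR). Together the 7 are 20.6% of the members, against 27.9% of all genes called in either direction, so the count lies under the background without the set as a block (with it, 38.2% of the members and 36.4% of all genes were called). Among all genes 21.8% had every knockout library above every WT palbociclib library and 19.5% had every one below. The 34 mRNAs took 0.256 ± 0.0214% of counts in knockout cells and 0.277 ± 0.0190% in WT cells on palbociclib (SD, n = 3 each).

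NUF2 stood far from the rest. It measured 43.7, 36.7 and 32.1 CPM in knockout cells, against 65.8, 67.9 and 58.1 CPM in WT cells on palbociclib, with no overlap. The knockout level was 58.7% of the WT level (log2 fold change -0.77 ± 0.11, edgeR adjusted p = 0.000342). NDC80, its partner, measured 149, 128 and 117 CPM in knockout cells, against 179, 172 and 148 CPM in WT cells, which just overlap. Its log2 fold change was -0.34 ± 0.089 (adjusted p = 0.0136), and it missed the threshold without the knockout library of set 2 (0.0574), without the WT palbociclib library of set 2 (0.0508) and with only these 2 groups in the fit (0.0613). The other NDC80 complex subunits were not called, SPC24 at 0.18 ± 0.087 and SPC25 at -0.18 ± 0.18. CENPE, the kinesin, measured 133, 112 and 104 CPM in knockout cells, against 172, 158 and 143 CPM in WT cells (log2 fold change -0.44 ± 0.084, adjusted p = 0.00184). Its groups did not overlap. MAD2L1 measured 97.7, 87.2 and 90.1 CPM in knockout cells, against 108, 108 and 109 CPM in WT cells (log2 fold change -0.24 ± 0.059, adjusted p = 0.00422). Every knockout library was below every WT library on palbociclib for this checkpoint effector.

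On the other side, CENPH and CENPK, partners in one CCAN subcomplex, were higher. CENPH measured 45.7, 46.7 and 43.4 CPM in knockout cells, against 34.8, 34.5 and 31.2 CPM in WT cells on palbociclib (log2 fold change 0.43 ± 0.057, edgeR adjusted p = 6.73e-06). CENPK measured 35.0, 34.3 and 33.4 CPM in knockout cells, against 28.6, 31.8 and 28.0 CPM in WT cells (log2 fold change 0.22 ± 0.062, adjusted p = 0.0131). Neither gene's groups overlapped. CENPI, of the same subcomplex, had -0.06 and was not called. CENPK missed the threshold without the WT palbociclib library of set 1 (adjusted p = 0.06) or of set 3 (0.0872). ZWILCH measured 130, 127 and 121 CPM in knockout cells, against 108, 117 and 102 CPM in WT cells (log2 fold change 0.21 ± 0.054, adjusted p = 0.00568). Its groups were apart too, although without the WT palbociclib library of set 3 the adjusted p was 0.0566. On the opposite strand ZWILCH shares 369 exon bases with LCTL and 158 with RPL4, an abundant ribosomal protein gene. Other tested members share exon bases with neighbouring genes too, among them CENPO, CENPU and MIS12 on the opposite strand and CENPA on the same strand.

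Set 3 held the lowest library for 29 of 34 members in knockout cells on palbociclib (34.6% of all genes) and for 27 of 34 in WT cells on palbociclib (36.4% of all genes). Among vehicle libraries set 3 was lowest for 8 of 34 members (35.7% of all genes) and set 2 for 20 of 34 (28.4% of all genes). Between sets 11 of 34 members differed (32.4%), CENPF and BUB1 with the smallest adjusted p among them, against 8.07% of all genes. With the set as a block, 6 members were higher and 7 lower in knockout cells, where 19.5% of all genes were called higher and 16.9% lower. The added members were CENPM (0.15, edgeR adjusted p = 0.0259), SPC24 (0.18, 0.0164) and SKA2 (0.14, 0.018) above WT, and HJURP (-0.15, 0.0253), CENPF (-0.14, 0.00633) and BUB1 (-0.25, 6.43e-05) below it. BUB1, not called without the block (adjusted p = 0.0965), measured 185, 154 and 141 CPM in knockout cells, against 210, 192 and 169 CPM in WT cells on palbociclib. The ranges overlap, yet within each set the knockout library was the lower one. The count moved with single libraries: without the WT palbociclib library of set 3, 1 member was higher and 6 were lower. Without the knockout library of set 1, 3 were higher and 8 lower, and without that of set 3, 6 were higher and 4 lower. NUF2, CENPE, MAD2L1 and CENPH were called under every one of these settings.

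Genes near the called members were also examined. For each member the median log2 fold change of the other tested genes within 5 Mb on either side was taken, and 6 of the 7 called members lay on the same side of 0 as their neighbours. So did 21 of the 27 members not called, 75.4% of all called genes with a window and 62.6% of all genes with a window. The count of sides is therefore not particular to the called members. By size, 5 of the 34 tested members had a window median at least 0.2 from 0, and 4 of those 5 were called. Another 3 called members had a window median within 0.2 of 0. The split by size was not taken over all genes. Around NUF2 on chromosome 1, at chr1:163266576-163355764 (GRCh38, plus strand), 89 neighbours had a median of -0.63 in knockout over WT cells on palbociclib. A window that low or lower was found for 0.301% of 18289 genes with at least 10 neighbours. NUF2 minus its neighbours' median was -0.14 on the log2 scale. Around NDC80 on chromosome 18, at chr18:2571511-2616635, 46 neighbours had a median of -0.25, and around CENPE on chromosome 4, at chr4:103105806-103198409, 45 neighbours had -0.24. CENPE, at -0.44, was further down than its window. MAD2L1 lies on the same chromosome, at chr4:120055608-120067074, and its 33 neighbours had a median of 0.03, close to 0.

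The higher members also lay on the same side of 0 as their neighbours, though not all at similar values. CENPK at chr5:65517766-65563171 and CENPH at chr5:69189548-69210357 lie near each other on chromosome 5, so their windows overlap. The window medians were 0.22 around CENPK, equal to its own change, and 0.20 around CENPH, whose own change was 0.43. With the neighbourhood median subtracted, CENPK came to -0.01 and CENPH to 0.24. ZWILCH, at chr15:66504959-66550128, had 102 neighbours with a median of 0.07. DSN1, at chr20:36751791-36773818, went the other way: its 105 neighbours had a median of -0.21, while DSN1 had 0.08 and was not called. Over all genes with a window, 5.77% had a window median of -0.2 or lower and 10.9% had one of 0.2 or higher. The part of the neighbourhood in these differences was not tested.

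**Figure D3:**
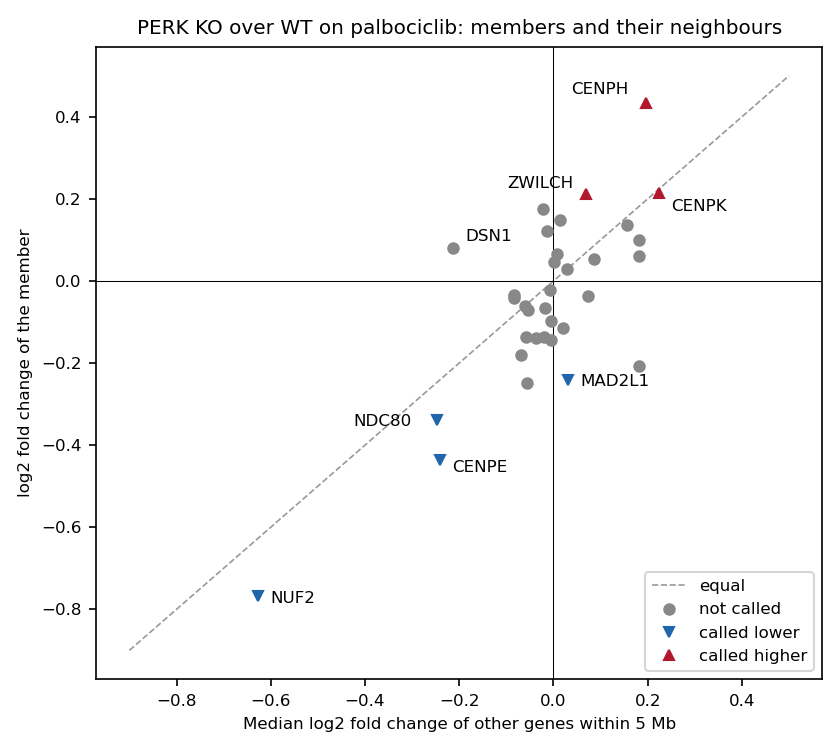
Log2 fold change of each member in PERK knockout over WT cells on palbociclib (vertical axis) against the median of the other tested genes within 5 Mb (horizontal axis); the dashed line marks equal values. NUF2 lies far to the lower left with a window median of -0.63, while MAD2L1 and CENPH lie away from the line.

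The last comparison set PERK knockout cells on palbociclib against WT cells on vehicle, and so joins genotype and drug. It shares its libraries with the other comparisons and adds no independent evidence to them. All 34 tested members were lower in knockout cells on palbociclib, and 33 of them had no overlap with vehicle, NSL1 being the exception. Of all genes, 26% were called lower, 25.7% higher and 51.7% in either direction (edgeR), and 29.7% had every knockout library below every vehicle library, while 28.8% had every one above. The members had a median of -0.59, beside -0.01 for all genes.

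NUF2 was the lowest of all, at 43.7, 36.7 and 32.1 CPM in knockout cells on palbociclib, against 111, 101 and 114 CPM in WT cells on vehicle. This is 34.5% of the vehicle level (log2 fold change -1.54 ± 0.10, edgeR adjusted p = 5.24e-07). SPC25 followed, at 2.51, 2.34 and 1.61 CPM in knockout cells on palbociclib, against 4.86, 4.00 and 4.27 CPM on vehicle (log2 fold change -1.03 ± 0.17, adjusted p = 4.08e-05). NDC80 had -0.92 ± 0.089 (adjusted p = 3.32e-06) and CENPE -0.90. The NDC80 complex thus held the 3 lowest members, and its median was -0.97. The BUB1 kinase, at -0.80, had the lowest value of the checkpoint genes.

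At the other end stood ZWILCH, NSL1 and CENPT. ZWILCH measured 130, 127 and 121 CPM in knockout cells on palbociclib, against 133, 141 and 143 CPM in WT cells on vehicle (log2 fold change -0.14 ± 0.054, edgeR adjusted p = 0.0355). NSL1 measured 39.5, 40.5 and 41.7 CPM in knockout cells on palbociclib, against 41.1, 45.2 and 50.04 CPM on vehicle (-0.16 ± 0.065, adjusted p = 0.0435). CENPT measured 29.3, 28.8 and 27.5 CPM in knockout cells on palbociclib, against 36.3, 30.3 and 33.8 CPM on vehicle (-0.23 ± 0.068, adjusted p = 0.00784). These 3 lay close to their vehicle levels. OIP5 passed narrowly at -0.91 ± 0.38 (adjusted p = 0.0489), at 0.497, 0.202 and 0.427 CPM in knockout cells on palbociclib, against 0.633, 0.631 and 0.908 CPM on vehicle. These calls depended on the tool and on single libraries. With DESeq2 ZWILCH (adjusted p = 0.0715), NSL1 (0.0793) and OIP5 (0.0746) missed the threshold, which left 31 of 34 members lower. With RLE factors in edgeR ZWILCH (0.0552) and NSL1 (0.0532) missed it, and NSL1 also did so with limma-voom (0.0534) and with only these 2 groups in the fit (0.0606). ZWILCH missed the threshold without the set 2 or set 3 library of either group (adjusted p up to 0.154). NSL1 missed it without any single knockout library, without the vehicle library of set 2 or set 3, or without the WT palbociclib library of set 1 or set 3 (up to 0.263). OIP5 missed it without any single vehicle library or without the knockout library of set 2 or set 3 (up to 0.197), and CENPT without the vehicle library of set 1 (0.0533).

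Several members work as pairs in one complex, so the ratio of their CPM within a library was taken for 14 pairs chosen after the values were seen, as a description with no test. NUF2 to NDC80 was 0.293, 0.287 and 0.275 in knockout cells on palbociclib, 0.368, 0.395 and 0.393 in WT cells on palbociclib, and 0.436, 0.421 and 0.454 on vehicle. The 3 groups did not overlap, and the ratio was lowest in knockout cells. In knockout over WT cells on palbociclib the neighbours' median was -0.63 around NUF2 and -0.25 around NDC80. The part of the neighbourhood in this ratio was not tested. CENPE to CENPF was 0.308, 0.296 and 0.295 in knockout cells, 0.366, 0.375 and 0.367 in WT cells on palbociclib, and 0.349, 0.340 and 0.357 on vehicle. Here WT cells on palbociclib were the highest and knockout cells the lowest. ZWILCH to ZW10 was 1.67, 1.79 and 1.73 in knockout cells, 1.37, 1.47 and 1.41 in WT cells on palbociclib, and 1.25, 1.29 and 1.39 on vehicle. The knockout ratios were above all others, while both WT groups overlapped.

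BUB1 to BUB3 was 0.870, 0.805 and 0.733 in knockout cells on palbociclib, 1.07, 0.961 and 0.941 in WT cells on palbociclib, and 1.19, 1.17 and 1.15 on vehicle, 3 groups apart. BUB1B to BUB3 showed another order. It was 0.498, 0.506 and 0.457 in knockout cells and 0.507, 0.481 and 0.465 in WT cells on palbociclib, which overlap, and 0.576, 0.575 and 0.575 on vehicle. CENPU to CENPQ was 2.58, 2.58 and 2.46 in knockout cells, 2.38, 2.43 and 2.41 in WT cells on palbociclib and 3.09, 3.13 and 3.13 on vehicle. Over the 14 pairs, 9 ratios were apart between knockout and WT cells on palbociclib, 3 above and 6 below. Between WT cells on palbociclib and on vehicle 9 were apart, again 3 above and 6 below. Of all single genes, 21.8% had knockout libraries all above WT palbociclib libraries and 19.5% all below. Against vehicle, WT palbociclib libraries were all above for 24.7% and all below for 26.9%. No share was taken over other gene pairs, and BUB3 and DSN1 each served in more than 1 pair. The counts are therefore not a result about these pairs.

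**Figure D4:**
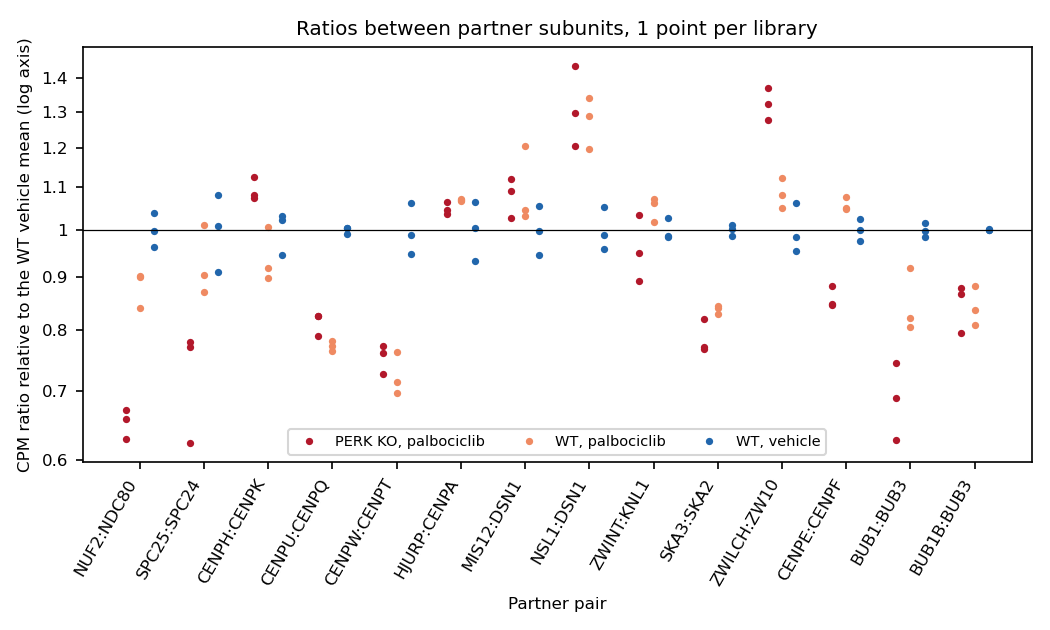
CPM ratio of partner genes within each library, relative to the mean of WT cells on vehicle, on a log axis with 1 point per library. Within its pair, the knockout group lies lowest for NUF2 to NDC80 and highest for ZWILCH to ZW10, and for BUB1B to BUB3 both palbociclib groups overlap.

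Levels per kilobase of exon differed widely between members. ZWINT had the highest, at 64.0 ± 5.44 CPM per kilobase in knockout cells on palbociclib, 65.6 ± 4.55 in WT cells on palbociclib and 103 ± 1.08 on vehicle (SD, n = 3 each). NDC80 was next in each group, with 36.5 ± 4.58 CPM per kilobase in knockout cells, 46.2 ± 4.57 in WT cells on palbociclib and 69.2 ± 2.32 on vehicle. Its partners stood lower. NUF2 had 11.2 ± 1.74 CPM per kilobase in knockout cells, 19.0 ± 1.54 in WT cells on palbociclib and 32.4 ± 2.12 on vehicle. SPC24 had 10.3 ± 1.13 in knockout cells, 9.09 ± 1.08 in WT cells on palbociclib and 15.2 ± 0.488 on vehicle. In knockout cells NUF2 and SPC24 differed by less than their spread, and in both WT groups NUF2 was above SPC24. SPC25 had 1.17 ± 0.259 CPM per kilobase in knockout cells, 1.32 ± 0.238 in WT cells on palbociclib and 2.38 ± 0.239 on vehicle. Only OIP5 lay below SPC25 among the tested members, in all 3 groups. Exon lengths join all annotated transcripts of GENCODE release 29, so a gene with rare long isoforms reads low.

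The promoter letters were set beside the changes as a description. In WT cells on palbociclib over vehicle, the 16 tested members with CHR letters had a median log2 fold change of -0.57 and a range of -0.85 to -0.44. The 12 tested members whose window held none had a median of -0.49 and a range of -0.75 to -0.13. CENPT, NSL1, CENPQ and ZWILCH, the 4 smallest changes among members with a window, held none. CENPE, CENPI, CENPT, DSN1 and NSL1 held no CHR, CCAAT or E2F letters, and DSN1 among them fell by 0.63 on the log2 scale. In knockout over WT cells on palbociclib the median was -0.13 with CHR letters and 0.07 without. In knockout cells on palbociclib over WT cells on vehicle it was -0.69 with and -0.44 without. The ranges overlapped in every comparison, and no difference was tested. The window used for CENPI lay inside its annotated gene, as did others such as those of CENPA and NUF2.

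Of 26 further kinetochore and checkpoint genes, 24 were lower in WT cells on palbociclib than on vehicle (92.3%, against 22.3% of all genes). None was higher (against 21.3% of all genes), and the median of the 26 was -0.49 on the log2 scale. The lowest were AURKB, the Aurora B kinase, at -0.82 and KNTC1, the large RZZ subunit, at -0.77. The highest were MAD1L1 at 0.15 and MAD2L1BP at -0.12, which were not called. In knockout over WT cells on palbociclib 2 of the 26 were higher (7.69%, against 14.9% of all genes) and 4 lower (15.4%, against 13% of all genes), near or under the background, with a median of -0.02. The lowest of these were CENPL, a CCAN subunit on chromosome 1, at -0.72, and CENPB, the alphoid DNA binder, at -0.62. The median of their neighbours was -0.54 around CENPL and -0.57 around CENPB. CENPX, a histone-fold protein, at 0.42 and CLASP1, a microtubule-binding protein, at 0.26 were the highest, with neighbour medians of 0.26 and 0.03. In knockout cells on palbociclib over WT cells on vehicle 23 were lower (88.5%, against 26% of all genes) and 1 higher (3.85%, against 25.7%). CENPL at -1.16 and CENPB at -0.92 were the lowest, and CLASP1 at 0.13 was the higher call. MAD1L1, at 0.31, was above it and was not called.

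The anaphase-promoting complex and separase act once the checkpoint is satisfied. In WT cells on palbociclib over vehicle, 11 of the 19 genes of that list were lower (57.9%, against 22.3% of all genes). The list had 1 higher gene (5.26%, against 21.3% of all genes) and a median of -0.28. The lowest were PTTG1, the securin, and the ubiquitin-conjugating enzyme UBE2S, both at -0.64. The one higher call was the subunit ANAPC13, at 0.22, and the next value was that of the subunit CDC26, at 0.03, not called. In knockout over WT cells on palbociclib the subunits CDC23 (0.34), ANAPC11 (0.32) and CDC27 (0.20) were higher, and UBE2C, the initiating ubiquitin-conjugating enzyme, was lower (-0.31). The next lowest was the subunit ANAPC4, at -0.16 and not called. These are 15.8% of the list higher and 5.26% lower, against 14.9% and 13% of all genes, so the counts are near or under the background. The neighbour medians were 0.33 around CDC23, 0.25 around ANAPC11 and 0.32 around CDC27. In knockout cells on palbociclib over WT cells on vehicle 12 of the 19 were lower (63.2%, against 26% of all genes). In the same comparison 1 was higher (5.26%, against 25.7% of all genes), and the median was -0.18. UBE2C, at -0.78, and PTTG1, at -0.73, were the lowest, ANAPC13, at 0.30, was the higher call, and CDC23, at 0.11, was not called.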

How the data were processed

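Poly(A)-selected RNA of 9 U2OS libraries was sequenced, per the labels' protocols. The authors deposited a table of raw counts with 1 column per library, per the labels, with no pooling. The submitters' processing notes name CASAVA, FastQC, Trim Galore, STAR 2.7.9a, DESeq2 and hg38 in no stated role. The read counter, strand handling and gene annotation behind the table were not given in the sources used here. Totals ran from 33674039 to 42577874 counts per library, of which 99.9% fell in the genes tested. Columns were matched to samples through the column names in the labels. Symbols came from a gene name table (62700 of 70116 IDs) and positions from GENCODE release 29 on GRCh38 (58261 IDs).

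The test was the quasi-likelihood one of edgeR 4.0.16, run in R 4.3.3 with limma 3.58.1, with TMM factors (0.977 to 1.01), the default low-count filter and all 9 libraries in 1 model of 3 groups (6 residual degrees of freedom, biological coefficient of variation 5.99%). Benjamini-Hochberg adjustment ran over all 19408 genes, and a gene was called at an adjusted p under 0.05. CPM values are TMM-scaled. The script was tested on simulated data. Replicates differed by more than sampling noise (3.45 to 10.7 chi-square units per degree of freedom). Same-numbered sets were correlated in their deviations from group means (0.18 to 0.54, 12932 genes, mean log2 CPM over 1). Different sets had -0.40 to 0.071. Taking deviations from group means pushes these below 0 on average once same-set values are positive, so they are no separate evidence. Over all tested genes 6 of 9 same-set pairs exceeded 0.1, so the pairing is a hint from the data.

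Alternatives were RLE factors, no low-count filter, DESeq2 1.42.0, limma-voom, only the 2 groups compared, the set as a block, each library left out and the neighbourhood median subtracted. Members and lists were chosen with earlier results of these data known. Named with every library's value were the 3 highest and 3 lowest members per comparison, the largest change per role under palbociclib in WT cells and EIF2AK3. Of the companion lists the 2 highest and 2 lowest genes are named, given by their log2 fold changes. CDC27 was added as a further called gene. MAD2L1, BUB1 and the per-kilobase and ratio examples were added after their values were seen. Python 3.11.15 and matplotlib 3.10.9 drew the figures.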

Additional observations from a re-analysis of the deposited data

How the results depend on the processing

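No alternative setting called a member higher in WT cells on palbociclib or in knockout cells on palbociclib against WT cells on vehicle. In knockout against WT cells on palbociclib the count was unstable: 7 members were lower without the low-count filter, and 6 were higher and 7 lower with the set as a replicate block, which changed no call in the other comparisons. Leaving out single libraries gave 1 to 6 members higher and 3 to 8 lower there, with a median of -0.08 to 0.01 and 4272 to 5705 genes called in all. For WT cells on palbociclib against vehicle, leaving out single libraries gave 32 to 33 members lower, a median of -0.59 to -0.46 (-0.46 without the palbociclib library of set 3) and 7357 to 8437 genes in all. For knockout cells on palbociclib against WT cells on vehicle it gave 31 to 34 members lower, a median of -0.66 to -0.51 and 9048 to 10354 genes. CENPK reversed in knockout against WT cells on palbociclib, to -0.01 (-0.00901), with the neighbourhood median subtracted. With DESeq2 BUB1 was called in knockout against WT cells on palbociclib (-0.26, adjusted p = 0.0155), and NSL1, OIP5 and ZWILCH were lost in knockout cells on palbociclib against WT cells on vehicle, where 31 members were lower (32 with RLE factors, 33 with limma-voom). The causes were not tested. With 3 libraries per group, changes much under 0.2 on the log2 scale were near the limit of these data, and OIP5 and SPC25 had the fewest counts.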

Other observations

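CENPN, CENPP and SKA1 had too few counts to test: CENPN was listed at 0 in all 9 libraries. CENPP had 2 counts, both in the vehicle library of set 1, and SKA1 had 1 count in the WT palbociclib library of set 3 and 1 in the vehicle library of set 3. They encode CCAN and SKA subunits that share complexes with members measured above. Of the genes that share exon bases with them on the opposite strand, CMC2, beside CENPN, had 5 counts in all, and NOL8, beside CENPP, was listed at 0. IPPK, which shares 3719 exon bases with CENPP (38.0% of those of CENPP), averaged 365 counts per library. Why the values are so low was not tested, and the members are given only as listed at or near 0.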
